A study of Homo sapiens with 6 samples.

Results

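The genes described here are 38 genes of homologous recombination and the Fanconi anemia pathway, found by symbol among the 27216 rows of an RNA-sequencing table of H1975 cells. The list uses no measured value in its rule, but it was drawn up with earlier results of these data known. All 38 symbols were in the table, and all 38 passed the filter on low values that left 12656 rows for testing. H1975 is a human lung adenocarcinoma line driven by mutant EGFR, and osimertinib (Osi) is an inhibitor of mutant EGFR. RNA-sequencing was run on 3 parental and 3 adapted samples, and the comparison asks what differs between cells before Osi and the cells that remain under it. The labels give the cells as NSCLC with a WT genotype, grown in DMEM with serum. Parental samples are labelled as 1000 nM osimertinib for 0 h, while the columns of the table call them DMSO, so it is not known whether they were exposed to the solvent. Adapted samples are cells kept in 1000 nM Osi for 72 h, and apoptotic cells were rinsed off before the RNA was taken, so that they represent the attached survivors of 1 cell line. By the labels, no sample was kept for 72 h without Osi, so Osi and time in culture cannot be told apart. For both groups the labels also describe a digestion of the total RNA with RNase R, an exonuclease that degrades linear RNA, before the libraries were made. The study describes its experiments in general as independent, but no source used here says whether the 3 sequenced samples of a group came from separate cultures, so p-values measure only the spread between these samples, which may be technical.

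Homologous recombination mends broken DNA by copying the intact sister chromatid, and it is used mainly in the S and G2 phases of dividing cells. Broken ends are sensed by the MRN complex and the kinases ATM and ATR, trimmed to single strands by nucleases, and prepared for the search of the sister by the BRCA proteins and the BCDX2 and CX3 complexes. The Fanconi proteins recognise crosslinks between DNA strands, where a core complex and the enzyme UBE2T attach ubiquitin to the FANCD2 and FANCI pair and so hand the lesion on to recombination.

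Most of these genes were lower in adapted cells. Of the 38 genes, 29 fell (76.3%), 1 rose (RAD51D, 2.63%) and 8 did not pass the test (limma with Benjamini-Hochberg adjustment over all rows tested, threshold 0.05). Among all rows tested, 56.9% changed, 26.2% falling and 30.7% rising. All 3 adapted values lay below all 3 parental values in 32 of the genes and above them in 2, against 30.6% and 35.7% of all rows tested (66.3% for both directions). The median log2 fold change of the 38 genes was -0.76, with a range from -1.88 (BRCA1) to 0.42 (RAD51D), while the median over all rows tested was 0.03. Each fold change given is the adapted minus the parental mean of log2(FPKM + 1), so it understates the change of genes with low FPKM. By FPKM, which scales a gene's reads by its length and by the library, adapted cells kept a median of 52.3% of the parental level, and 17 of the 38 genes kept less than 50%. A log2 fold change of -1 or below was reached by 14 of the genes that fell, against 5.18% of all rows tested, and a value of 1 or above by none of the 38, against 5.31%. In bulk RNA, fewer cells that express a gene and less of its RNA per cell cannot be told apart.

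**Figure D1:**
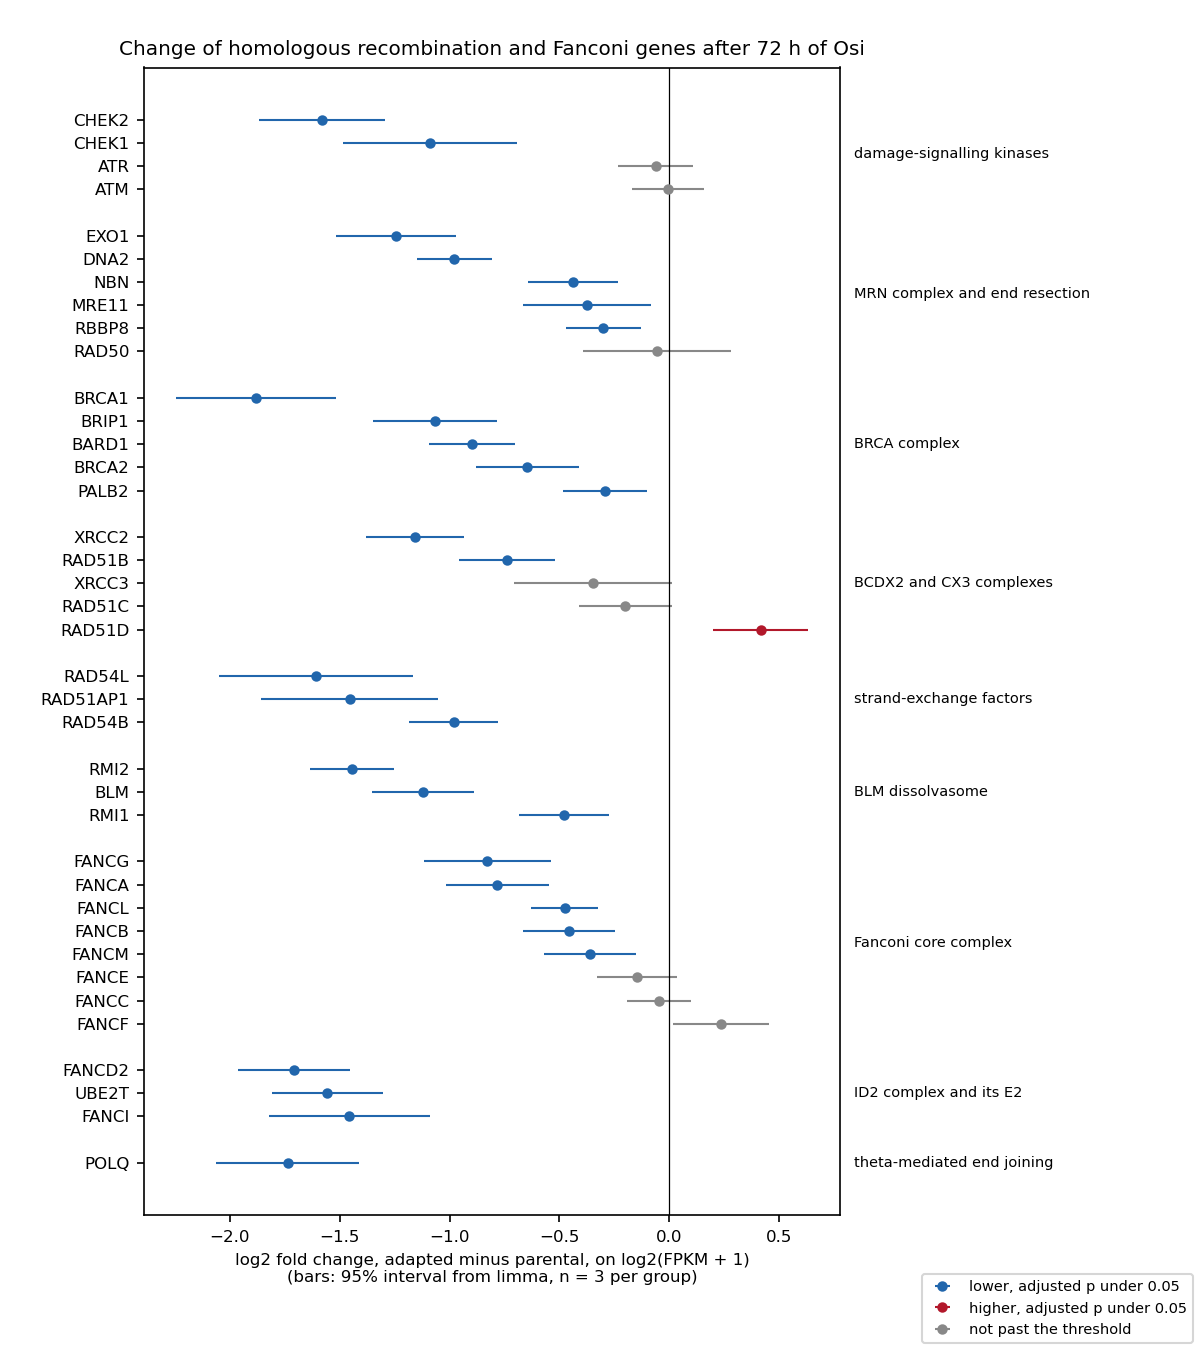
Log2 fold change (adapted minus parental, on log2(FPKM + 1)) of each of the 38 genes, grouped by role, with the 95% interval from limma (n = 3 per group). BRCA1 lies farthest to the left at -1.88, the ID2 complex and the strand-exchange factors lie entirely to the left of 0, and RAD51D is the single gene past the threshold on the right at 0.42.

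The stretches upstream of an annotated transcription start are shown for the 3 genes with the largest fall and for 2 of the 3 with the smallest change. The promoters of both kinds can thus be read side by side. For BRCA1, POLQ, FANCC and RAD50 the stretch lies within the span that GENCODE v29 gives the gene, so other annotated starts lie further upstream. The stretches were taken from RefSeq windows (GRCh38.p14) of 250 bases before to 50 bases after a start. Each was cut to the longest run before the start outside protein-coding exons and read 5′ to 3′ on the gene's own strand. ATM, the gene with the smallest change, is not shown because no such run in the window used reached 60 bases. Capitals mark matches to 3 short motifs: E2F sites (TTTGGCGC, TTTCGCGC, TTTCCCGC and TTTGCCGC), the CHR element (TTTGAA and TTCGAA) and the CCAAT box (CCAAT), each on either strand and with no overlap between the motifs shown. None is particular to genes of dividing cells: CHR was found in 19.5% and CCAAT in 39.7% of all genes with a promoter window.
BRCA1 (chr17:43125484-43125614, minus strand, 1 CCAAT box): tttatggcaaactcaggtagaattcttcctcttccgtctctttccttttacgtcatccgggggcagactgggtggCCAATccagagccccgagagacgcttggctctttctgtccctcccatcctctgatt
POLQ (chr3:121546007-121546238, minus strand, 1 CHR element in this stretch): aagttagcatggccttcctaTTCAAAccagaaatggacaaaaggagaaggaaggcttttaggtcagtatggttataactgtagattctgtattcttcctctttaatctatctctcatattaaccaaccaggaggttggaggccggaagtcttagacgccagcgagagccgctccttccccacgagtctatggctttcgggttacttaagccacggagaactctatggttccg
FANCD2 (chr3:10026187-10026413, plus strand, no match in this stretch): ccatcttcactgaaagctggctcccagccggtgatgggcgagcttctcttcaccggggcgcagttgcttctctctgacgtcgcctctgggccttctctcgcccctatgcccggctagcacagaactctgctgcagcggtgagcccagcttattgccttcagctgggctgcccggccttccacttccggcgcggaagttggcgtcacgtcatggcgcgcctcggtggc
FANCC (chr9:95317710-95317959, minus strand, 2 E2F sites and 1 CHR element): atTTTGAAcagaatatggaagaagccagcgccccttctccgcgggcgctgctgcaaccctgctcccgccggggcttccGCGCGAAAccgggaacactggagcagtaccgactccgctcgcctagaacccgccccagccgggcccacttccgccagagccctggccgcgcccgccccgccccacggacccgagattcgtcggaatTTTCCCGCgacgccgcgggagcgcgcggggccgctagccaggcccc
RAD50 (chr5:132556839-132556937, plus strand, no match in this stretch): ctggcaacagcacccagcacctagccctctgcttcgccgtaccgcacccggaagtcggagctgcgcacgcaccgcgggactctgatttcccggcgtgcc
The CCAAT box of BRCA1 begins 175 bases before the start, and the CHR match of POLQ begins 230 bases before it. FANCD2 has an E2F match (GCGGGAAA) that begins 2 bases before its start, outside the stretch shown, and the POLQ window has another CHR match that begins 4 bases after the start. FANCC, which did not pass the test, has E2F matches that begin 172 and 46 bases before the start. ATM has CCAAT boxes that begin 56 bases before and 38 bases after the start. Matches thus stood in windows of all 3 genes with the largest falls and of 2 of the 3 with the smallest changes. The share of all rows with a match to any of the 3 motifs was not computed. A CCAAT box alone was found in 43.3% of the promoters of rows tested, so these matches do not set the genes apart.

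Promoter windows were matched for 33 of the 38 genes. An E2F site was found in 6 of the 33 (18.2%), a CHR element in 5 (15.2%) and a CCAAT box in 16 (48.5%), counting a gene if any of its windows held the motif. The same motifs were found in 6.82%, 15.3% and 43.3% of the 9334 promoters of rows tested. Among the 12 matched genes with a log2 fold change of -1 or below, the shares were 25.0% for E2F, 25.0% for CHR and 66.7% for CCAAT, against 14.3%, 9.52% and 38.1% in the other 21. For the 460 promoters of all rows that fell by as much, they were 8.04%, 30.9% and 51.5%. With 12 and 21 genes these shares rest on few promoters and are given as a description, and a match does not show that a factor binds.

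**Figure D2:**
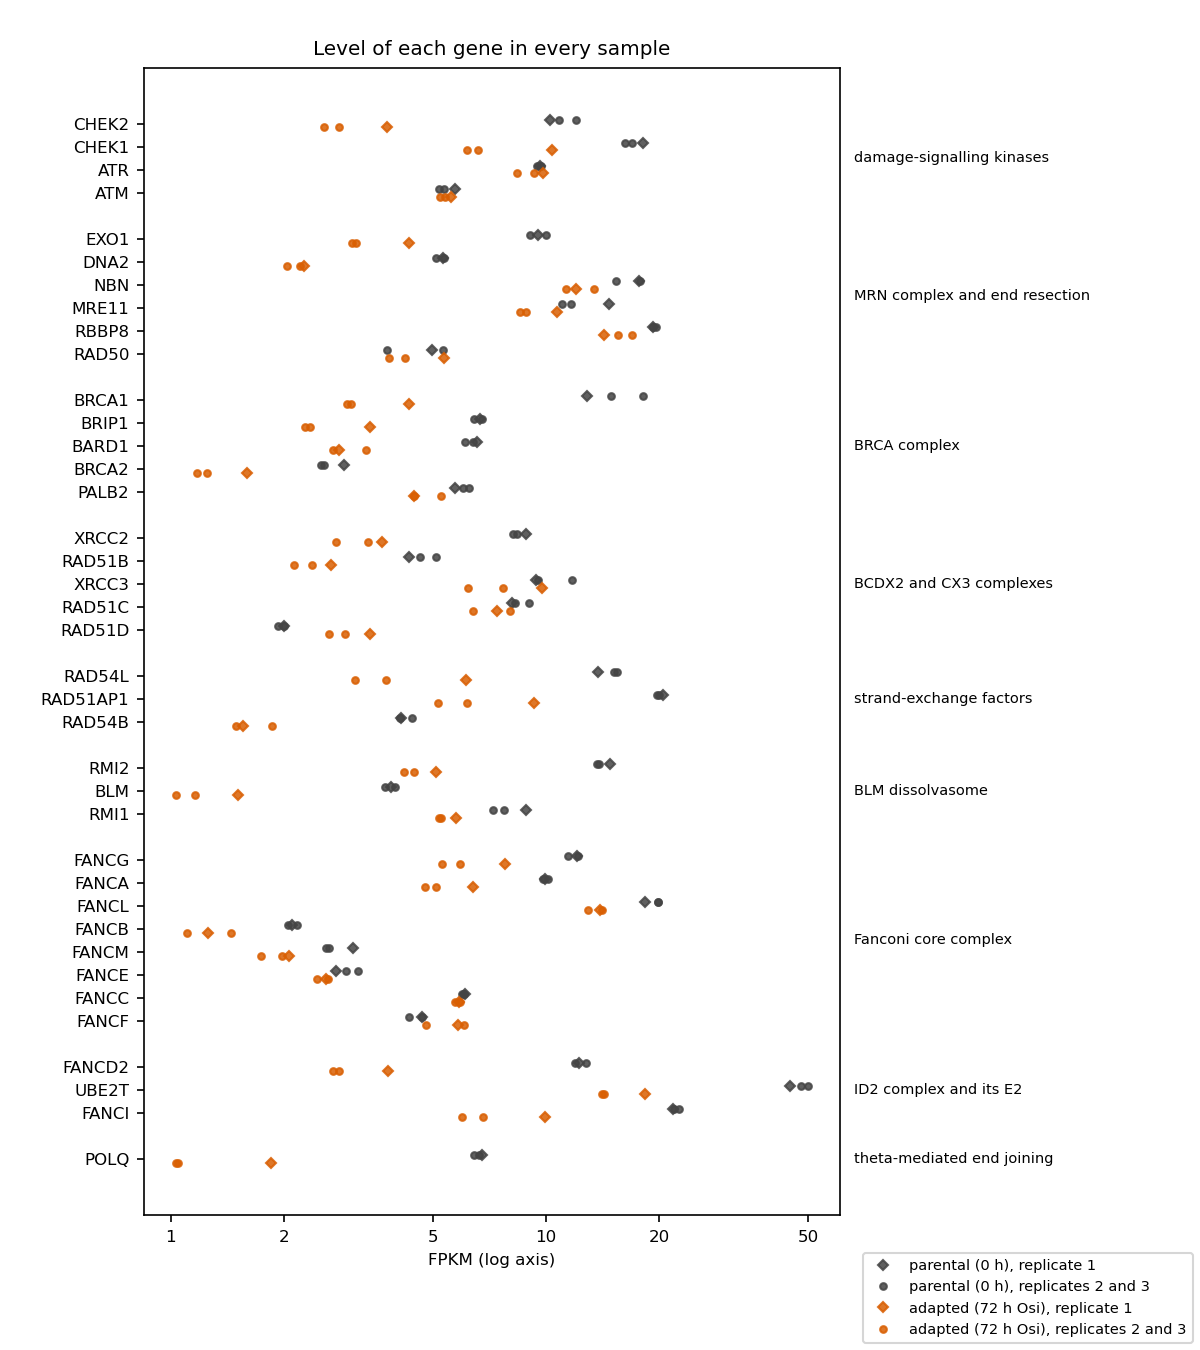
FPKM of each gene in each of the 6 samples on a log axis, with diamonds for replicate 1 and circles for replicates 2 and 3 of the parental (grey) and adapted (orange) groups. The groups are far apart for BRCA1, POLQ and FANCD2, overlap for ATM, ATR, RAD50 and XRCC3, and are reversed for RAD51D and FANCF.

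Of the 4 damage-signalling kinases, the effector kinases fell and the apical kinases did not pass the test. CHEK2, which spreads the ATM signal to the cell cycle machinery, measured 10.2, 12.01 and 10.8 FPKM in parental cells and 3.76, 2.81 and 2.56 FPKM in adapted cells. The groups did not overlap, and its log2 fold change was -1.58 ± 0.12 (SE, n = 3 per group, limma adjusted p = 5.78e-05). CHEK2 has pseudogene copies elsewhere in the genome, as has FANCD2, so reads could be split between copies and both levels are uncertain to that extent. CHEK1, the effector of ATR at stalled forks, measured 18.2, 16.98 and 16.2 FPKM in parental and 10.4, 6.57 and 6.15 FPKM in adapted cells, with the highest adapted value in replicate 1 (log2 fold change -1.09 ± 0.17, limma adjusted p = 0.0013). ATM itself measured 5.71, 5.33 and 5.19 FPKM against 5.58, 5.36 and 5.20 FPKM. These values overlapped between the groups, and the 95% interval of the ATM log2 fold change ran from -0.17 to 0.16. For ATR the interval ran from -0.23 to 0.11, and its mean was 9.59 ± 0.119 FPKM in parental and 9.17 ± 0.722 FPKM in adapted cells (SD, n = 3). Another annotated gene lies opposite 16.4% of the exonic bases of ATR.

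Of the 6 genes that sense and trim broken ends, 5 fell and RAD50 did not pass the test. EXO1, a nuclease of long-range resection, measured 9.54, 9.07 and 10.0 FPKM in parental and 4.31, 3.11 and 3.03 FPKM in adapted cells (log2 fold change -1.24 ± 0.12, limma adjusted p = 0.000127). DNA2, the nuclease and helicase that works in parallel with EXO1, went from 5.30, 5.34 and 5.09 FPKM to 2.27, 2.21 and 2.04 FPKM (log2 fold change -0.98 ± 0.07, limma adjusted p = 4.8e-05). For both nucleases every adapted value was below 50% of the lowest parental value. Genes of the earlier steps kept more of their level: RBBP8 (CtIP, the starter of resection) kept 80.4% of its parental FPKM, NBN 72.3% and MRE11 75.02%, the last 2 being subunits of MRN. These 3 genes fell, with log2 fold changes of -0.30, -0.44 and -0.38, but the call for MRE11 (limma adjusted p = 0.0346) was lost on leaving out parental replicate 1 or 2 or adapted replicate 2 or 3, or without the filter (limma adjusted p of 0.0617 to 0.118). RAD50, the ATPase of MRN, measured 4.95, 5.32 and 3.76 FPKM in parental and 5.36, 4.21 and 3.82 FPKM in adapted cells. Its groups overlapped, the 95% interval of its log2 fold change ran from -0.39 to 0.28, and 79.7% of its annotated exonic bases are shared with other annotated genes (GENCODE v29), so its reads could have been assigned elsewhere. The difference between genes of earlier and later steps was not tested.

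All 5 genes of the BRCA complex fell, and BRCA1 fell the most of all 38 genes. BRCA1 (chr17:43044295-43170245, minus strand, GENCODE v29 on GRCh38), the ubiquitin ligase that promotes resection and recruits PALB2, measured 12.8, 18.2 and 14.9 FPKM in parental cells and 4.31, 2.94 and 3.02 FPKM in adapted cells. Every adapted value was far below every parental value although the parental values spread widely, and the log2 fold change was -1.88 ± 0.16 (limma adjusted p = 7.83e-05). BARD1, the partner with which BRCA1 forms its ligase, measured 6.53, 6.39 and 6.07 FPKM against 2.81, 3.32 and 2.70 FPKM (log2 fold change -0.90 ± 0.08, limma adjusted p = 0.000128). BRCA2, which acts on the trimmed single strands, was low in both groups, at 2.90, 2.56 and 2.51 FPKM in parental and 1.59, 1.18 and 1.25 FPKM in adapted cells. At these levels the added 1 shrinks the scale: BRCA2 kept 50.5% of its FPKM but its log2 fold change was -0.65 ± 0.10 (limma adjusted p = 0.00128). BRIP1, a helicase that binds BRCA1, had a log2 fold change of -1.07 and kept 40.4% of its FPKM. PALB2, the bridge between BRCA1 and BRCA2, was the least changed of the 5, at 5.70, 6.01 and 6.23 FPKM against 4.45, 4.45 and 5.23 FPKM. Its groups did not overlap, but its call (limma adjusted p = 0.0183) was lost on leaving out parental replicate 2 or 3 or adapted replicate 2 (limma adjusted p of 0.0531 to 0.0745).

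The 5 genes of the BCDX2 and CX3 complexes, which act after resection to help strand exchange, did not share a direction. XRCC2 measured 8.87, 8.36 and 8.15 FPKM in parental and 3.66, 2.76 and 3.35 FPKM in adapted cells, with no overlap (log2 fold change -1.16 ± 0.09, limma adjusted p = 7.45e-05). RAD51B also fell, to 51.3% of its parental FPKM (log2 fold change -0.74 ± 0.09, limma adjusted p = 0.000497). RAD51D (chr17:35092208-35121522, minus strand) had the lowest parental mean of all 38 genes and was the one gene that rose, from 2.00, 1.93 and 2.00 FPKM to 3.40, 2.64 and 2.91 FPKM. The 3 adapted values all lay above the parental ones, and the log2 fold change was 0.42 ± 0.09 (limma adjusted p = 0.00697). Part of RAD51D, 9.45% of its exonic bases, overlaps other annotated genes, among them the readthrough gene RAD51L3-RFFL on the same strand, so its level is uncertain to that extent. RAD51C stood at -0.20 on the log2 scale (limma adjusted p = 0.0966) although its groups did not overlap. XRCC3 overlapped between groups (9.37, 9.50 and 11.7 FPKM against 9.74, 6.21 and 7.67 FPKM). Without adapted replicate 1, its highest adapted value, XRCC3 passed the test (log2 fold change -0.50, limma adjusted p = 0.00808), and 76.7% of its exonic bases lie opposite KLC1 on the other strand, so that in a library without strand the reads of the pair cannot be told apart. XRCC2, RAD51B, RAD51C and RAD51D together form BCDX2, and the difference in direction between them was not tested.

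All 3 strand-exchange factors fell strongly. RAD54L, the motor protein that drives strand invasion, measured 13.8, 15.5 and 15.1 FPKM in parental and 6.11, 3.10 and 3.75 FPKM in adapted cells. Adapted replicate 1 stood above the other two but still below all parental values (log2 fold change -1.61 ± 0.19, the largest SE of the 38 genes, limma adjusted p = 0.000356). RAD51AP1, which helps homologous strands pair, kept 34.2% of its FPKM, and RAD54B, a relative of RAD54L, kept 38.97% (log2 fold change -0.98 ± 0.09, limma adjusted p = 9.7e-05). RAD54B shares 59.1% of its exonic bases with FSBP on the same strand, and RAD54L has 25.1% opposite LRRC41, so both levels may include reads of the neighbour.

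The dissolvasome separates joined chromosomes without exchange. Its helicase BLM and scaffold proteins RMI1 and RMI2 are among the 38 genes, and all 3 fell. TOP3A, its topoisomerase, is listed with the wider pathway below and did not pass the test (log2 fold change 0.31, limma adjusted p = 0.0515). All 3 adapted values of TOP3A lay above all 3 parental values. RMI2 measured 14.8, 13.9 and 13.7 FPKM in parental and 5.08, 4.44 and 4.17 FPKM in adapted cells, with little spread within either group (log2 fold change -1.44 ± 0.08, limma adjusted p = 1.51e-05, the lowest of the 38 genes). BLM went from 3.85, 3.96 and 3.73 FPKM to 1.51, 1.16 and 1.03 FPKM and had the lowest adapted mean of the 38 genes (log2 fold change -1.12 ± 0.10, limma adjusted p = 0.000101). RMI1 kept 68.03% of its FPKM (log2 fold change -0.48 ± 0.09, limma adjusted p = 0.0028).

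Of the 8 genes of the Fanconi core complex on the list, 5 fell and 3 did not pass the test, with a median log2 fold change of -0.41. The core subunit FAAP100 is listed with the wider pathway below and rose (0.60). It is 1 of 11 Fanconi accessory factors there, of which 6 fell and 3 rose. FANCG and FANCA, which bind each other in the core, fell the most, with log2 fold changes of -0.83 and -0.78, and kept 53.2% and 54.3% of their FPKM. Of the exonic bases of FANCA, 23.6% lie opposite ZNF276. FANCL, the ubiquitin ligase of the core, measured 18.4, 19.9 and 19.9 FPKM in parental and 13.95, 14.1 and 12.9 FPKM in adapted cells (log2 fold change -0.48 ± 0.07, limma adjusted p = 0.000726). Other annotated genes, among them VRK2, lie opposite 19.7% of the exonic bases of FANCL. FANCB and FANCM, a partner of FANCL and the DNA translocase that anchors the complex, were at or below 3.05 FPKM in every sample and had log2 fold changes of -0.46 and -0.36. Without parental replicate 1 the call for FANCM was lost (limma adjusted p = 0.0509, against 0.0111 with all samples). FANCC measured 6.10, 6.05 and 5.97 FPKM against 5.86, 5.90 and 5.71 FPKM. These groups did not overlap, but the step was small, and the 95% interval of its log2 fold change ran from -0.19 to 0.10. FANCE had an interval from -0.33 to 0.04. FANCF was higher in all 3 adapted samples, at 5.84, 6.03 and 4.78 FPKM against 4.68, 4.66 and 4.31 FPKM, and missed the threshold (limma adjusted p = 0.0648), which it passed without adapted replicate 3 (0.0139). GAS2 lies opposite 11.3% of the exonic bases of FANCF, so its level is uncertain to that extent.

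The substrates of the core, FANCD2 and FANCI, and the conjugating enzyme UBE2T all fell, to between 25.2% and 34.3% of their parental FPKM. FANCD2 (chr3:10026414-10101930, plus strand) measured 12.2, 11.96 and 12.8 FPKM in parental and 3.80, 2.71 and 2.80 FPKM in adapted cells (log2 fold change -1.71 ± 0.11, limma adjusted p = 2.49e-05). FANCI measured 21.8, 21.9 and 22.6 FPKM against 9.96, 6.79 and 5.98 FPKM (log2 fold change -1.46 ± 0.16, limma adjusted p = 0.000233). UBE2T had the highest parental level of the 38 genes, at 44.7, 47.8 and 50.002 FPKM, and measured 18.4, 14.1 and 14.3 FPKM in adapted cells (log2 fold change -1.56 ± 0.11, limma adjusted p = 3.47e-05). In each of the 3 genes the parental values were close together, all adapted values were lower, and adapted replicate 1 was the highest of the adapted samples. FANCD2 kept the least of the 3. In adapted cells RBBP8 and UBE2T had nearly the same mean, 15.6 ± 1.35 and 15.6 ± 2.45 FPKM (SD, n = 3), whereas in parental cells they stood at 19.4 ± 0.188 and 47.5 ± 2.69 FPKM.

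POLQ (chr3:121431427-121546641, minus strand) encodes DNA polymerase theta, which joins resected ends through short stretches of matching sequence and is a backup for recombination. It measured 6.76, 6.63 and 6.42 FPKM in parental cells and 1.85, 1.03 and 1.05 FPKM in adapted cells. The groups were far apart, and with 19.8% of the parental FPKM kept it lost the largest share of the 38 genes (log2 fold change -1.74 ± 0.14, limma adjusted p = 6.65e-05). Taken 1 gene at a time, an exact permutation test of 3 against 3 samples cannot give a two-sided p below 0.1, so the calls above rest on the spread that limma shares over all rows.

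Since partners fell by different amounts, their FPKM ratios moved. Of 8 pairs of partners, chosen after their values were seen and therefore given without a test, 6 had ratios that did not overlap between the groups. The share for other pairs of genes was not computed, and of single rows tested 66.3% did not overlap. The ratio of BRCA1 to BARD1 was 1.96, 2.84 and 2.46 in parental and 1.53, 0.886 and 1.12 in adapted samples. CHEK2 stood at 1.79, 2.25 and 2.08 times the FPKM of ATM in parental cells and at 0.674, 0.523 and 0.492 times in adapted cells, so that their order was reversed. The order also turned in the means of RMI2 to RMI1 (1.79 to 0.844) and of CHEK1 to ATR (1.78 to 0.832), though CHEK1 remained above ATR in adapted replicate 1, at a ratio of 1.06. UBE2T to FANCL went from a mean ratio of 2.45 to 1.14. FANCD2 to FANCI moved the least of the 6, from 0.557 to 0.416. The ratios of RAD54L to RAD54B and of EXO1 to DNA2 overlapped between the groups.

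The adapted samples were not alike. Adapted replicate 1 had the highest adapted value in 27 of the 38 genes (71.1%) and in 22 of the 29 that fell (75.9%), against 56.0% of all rows that fell and 39.6% of all rows tested. The median difference of the 38 genes from the parental mean, on log2(FPKM + 1), was -0.56 in adapted replicate 1, -0.81 in replicate 2 and -0.84 in replicate 3. Summed over the 38 genes, the level ran from 392.8 to 399.0 FPKM in parental samples and was 230.9, 194.7 and 191.0 FPKM in adapted replicates 1, 2 and 3. All 3 adapted sums were thus well below the parental range, and replicate 1 lay between the parental samples and the other two. The SD of log2(FPKM + 1) was larger in the adapted group for 31 of the 38 genes, with a median of 0.149 against 0.0568, and all rows tested showed medians of 0.129 and 0.0576. Without adapted replicate 1, 30 genes fell, and 8370 of all rows tested were called, against 7202 with all samples.

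Genes of cycling cells moved with them. In a list of 18 proliferation genes (among them MKI67, PCNA, the cyclins and the MCM helicase) all 18 were lower and 16 fell (88.9%), against 26.2% of all rows tested. The median log2 fold change of the 18 genes was -0.87. TOP2A, a topoisomerase that untangles chromosomes, CDK1, the kinase that starts mitosis, and MKI67, the Ki-67 antigen, fell the most, with log2 fold changes of -2.77, -2.50 and -1.89. The summed level of the list was 856.2 to 870.1 FPKM in parental samples and 494.1, 319.8 and 307.8 FPKM in adapted replicates 1, 2 and 3. Adapted replicate 1 was the highest adapted sample in all 18 genes, against 56.0% of all rows that fell and 39.6% of all rows tested. By both sums adapted replicate 1 was nearest to the parental samples. The part of cycling cells in the fall of the 38 genes was not tested. Over the 38 genes, Spearman's rho between the parental level and the log2 fold change was -0.48, against -0.23 over all 12656 rows. It is taken across genes, which share libraries and are not replicates. The parental level enters both quantities, and the added 1 shrinks the fold changes of genes with low FPKM. A negative rho is therefore partly built in and is given only as a description.

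In a wider list of the pathway, a smaller share of the genes fell. Of 62 further genes of recombination, crosslink repair and checkpoint signalling, 29 fell (46.8%), 8 rose (12.9%) and 25 did not pass the test. Among all rows tested, 26.2% fell and 30.7% rose. The median log2 fold change of the 62 genes was -0.17. The difference between this list and the 38 genes was not tested. Among mediators and related factors 12 of 19 genes fell and 2 rose, and among Fanconi accessory factors 6 of 11 fell and 3 rose. Of the checkpoint and chromatin factors 6 of 18 fell (33.3%) and 2 rose, and of the nucleases 3 of 10 fell (30%) and 1 rose. These shares of falls are near the 26.2% of all rows tested. Of the helicases 2 of 4 fell and 0 rose. Differences between these groups were not tested. EME1, a partner of the MUS81 nuclease, fell the most (log2 fold change -1.61), followed by C17orf53 (HROB), which recruits the MCM8-MCM9 helicase (-1.49), and the helicase RECQL4 (-1.31). The 3 that rose the most were MCM9 (0.63), SWSAP1, a mediator of recombination (0.62), and FAAP100, a subunit of the Fanconi core (0.60). RAD51D, with 0.42, lay below all 3. None of the 62 genes rose by 1 or more, against 5.31% of all rows tested, and 7 fell to -1 or below, against 5.18%.

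**Figure D3:**
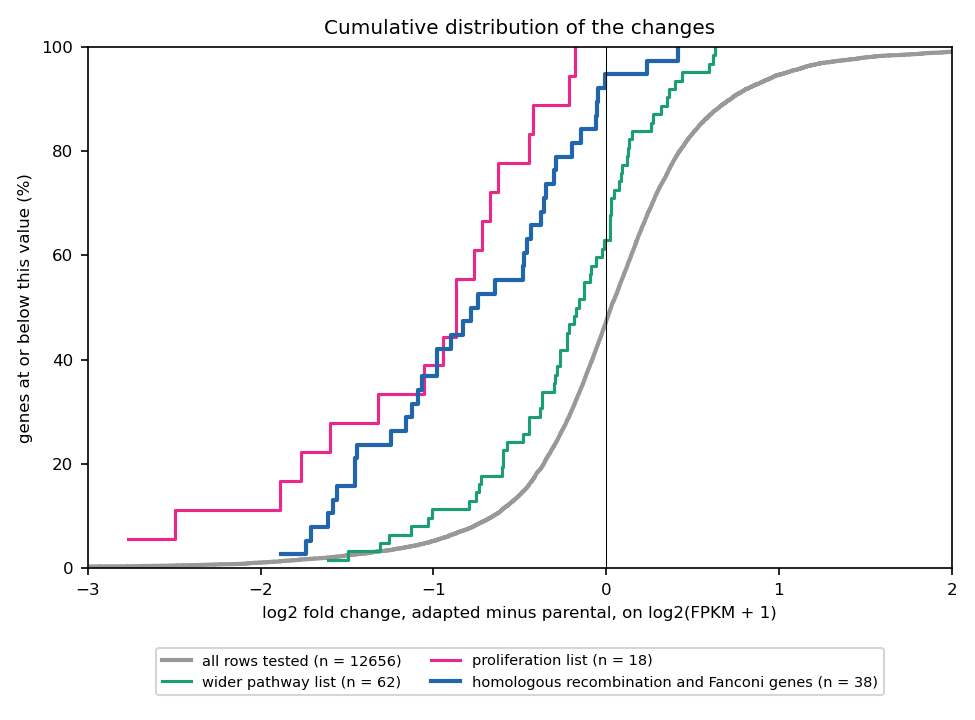
Cumulative share of genes (%) at or below each log2 fold change for the 38 genes, the 62 genes of the wider pathway, the 18 proliferation genes and all 12656 rows tested. The curve of the 38 genes lies to the left of those of the wider pathway and of all rows over most of its range, with medians of -0.76, -0.17 and 0.03, and crosses that of the proliferation list, whose median is -0.87.

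Across the 6 samples, the summed FPKM of 5 epithelial markers was 3044 to 3071 in parental and 2145 to 2295 in adapted cells, so both groups had the markers of an epithelial line. Of the 5, 3 fell (60%, against 26.2% of all rows tested): KRT19, KRT18 and KRT8, with log2 fold changes of -0.75, -0.57 and -0.28. EPCAM and CDH1 did not pass the test. Fibroblast markers summed to 3.04 to 3.16 FPKM and 7.65 to 9.21 FPKM, mostly COL1A1, with COL1A2, DCN and PDGFRB near 0. COL1A1 rose, with a log2 fold change of 1.12. LUM was higher in all adapted samples, at 0.73, 0.53 and 0.57 against 0.06, 0.04 and 0.06 on log2(FPKM + 1). Of the immune markers, CD3E was at 0 in all samples and PTPRC in all parental ones, and the list's sum (74.5 to 76.9 FPKM in parental, 14.8 to 29.8 FPKM in adapted) was almost wholly CD68. CD68 fell, with a log2 fold change of -1.85. Endothelial markers summed to 1.13 to 1.86 and 1.46 to 3.48 FPKM, with TEK at 0 in all parental samples. Within that sum, PECAM1 went from 1.28, 1.40 and 0.996 to 0.07, 0.09 and 0.11 on log2(FPKM + 1), and CDH5 from 0.19, 0.27 and 0.16 to 1.19, 2.08 and 1.87. These 2 markers moved in opposite directions without overlap, and both were under the filter on low values and were not tested. The part of these shifts in the fall of the 38 genes was not tested.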

How the data were processed

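The authors deposited 1 table of log2 values with 1 column per sample, and 0 further per-sample columns. Neither the table nor the methods name the unit. Raising 2 to each value and subtracting 1 gave numbers with 6 decimals, so the values were read as log2(FPKM + 1). In 147 rows, none of them among the 38 genes, at least 1 value deviated from this. The submitters' processing notes list hg38, STAR, edgeR and Bowtie2 2.1.0 without roles; the annotation, the quantifier and whether strand was used are not given in the sources used here. The authors' methods name DESeq2, which needs counts, so limma 3.58.1 in R 4.3.3 was used on the log2 values (lmFit, eBayes with trend, unpaired, Benjamini-Hochberg, threshold 0.05). Rows with a mean of at least 1 were tested (12656 of 27216). Depth is unknown, so errors come from replicate spread alone. Digestion with RNase R, which the labels describe, degrades linear transcripts, and its effect on these values was not tested.

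The fit was tested on simulated data before use. The 38 genes and all lists were chosen with earlier results of these data known. All 38 genes could be named, with up to 3 genes that rose and 3 that fell most, past the threshold and without overlap between groups, of each repair list, and the 3 proliferation genes that fell most. Some of these genes are not reported here. Replicate numbers did not pair the samples. Other pseudocounts, filters, scalings, thresholds, variance settings, a replicate block and leaving out each sample were tried. Positions and exon overlaps came from GENCODE v29, promoters from RefSeq. Python 3.11.15 drew the figures.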

Additional observations from a re-analysis of the deposited data

How the results depend on the processing

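The 29 genes that fell and the median of -0.76 were recomputed under the alternatives. The stricter filter (a mean of at least 3) left fewer genes to test, 16 of the 38, and gave 13 that fell and 0 that rose. In the wider pathway it gave 17 and 3. Over all rows it called 4532 of 7693 tested, against 7202 of 12656 in the main fit. Asking for a log2 fold change of at least 1 in size gave 14 and 0 of the 38 genes, 7 and 0 of the wider pathway and 1328 of all rows, by its own construction. A pseudocount of 0.1 moved the median to -0.93. Rescaling without mitochondrially encoded genes gave 2 that rose, with FANCF added. A threshold of 0.01 left 5 that rose of the wider pathway. Leaving out 1 sample at a time gave 27 to 30 genes that fell, 1 to 2 that rose and medians of -0.84 to -0.72. Of the wider pathway 22 to 33 fell and 5 to 9 rose, the 5 without parental replicate 2. Calls over all rows then ran from 5763 (without parental replicate 2) to 8370 (without adapted replicate 1). ATM turned to 0.0017 on rescaling to an equal sum and to 0.035 on doing so without mitochondrially encoded genes, and ran from -0.031 to 0.027 on leaving out 1 sample, and RAD50 from -0.18 to 0.030. FANCE passed under quantile normalization (limma adjusted p = 0.0443), and RAD51C without adapted replicate 3 (0.0488). RBBP8, PALB2, MRE11 and FANCM lost their calls at 0.01. Same-numbered samples did not deviate together (r = -0.05, -0.03 and -0.02 over rows), and with a replicate block 29 genes fell and 1 rose, with 24 and 9 of the wider pathway and 6761 of all rows. Of all calls, 54.0% were higher, and 51.1% to 59.1% under the other scalings, where the median of all rows was 0.0046 to 0.0702. Without depth, small changes in genes of low FPKM cannot be separated from counting error.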

Other observations

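End joining and excision repair held genes that moved both ways. Of 14 end-joining genes tested, 4 fell (28.6%) and 1 rose (7.14%), against 26.2% and 30.7% of all rows tested, and the median log2 fold change was -0.18. RIF1, which shields broken ends from resection, had a log2 fold change of -0.72, the ligase cofactor XRCC4 one of -0.49 and the nuclease DCLRE1C (Artemis) one of -0.44, while NHEJ1 (XLF), which bridges ends, rose by 0.77.

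Of 27 genes of base and nucleotide excision repair, 5 fell (18.5%) and 6 rose (22.2%). Both shares are below those of all rows tested (26.2% and 30.7%), and the median log2 fold change of 0.03 is that of all rows. The glycosylases NEIL3 and MUTYH fell the most, with log2 fold changes of -1.60 and -1.02, followed by the damage-recognition factor RAD23B at -0.67. The genes that rose without overlap included the damage sensor DDB1 (0.41), ERCC8 of transcription-coupled repair (0.38) and the endonuclease APEX1 (0.37). These lists were chosen with earlier results known, and the differences between them and the 38 recombination genes were not tested.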
